A study of Mus musculus with 8 samples.

Results

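Genes of the cell cycle and of DNA replication were followed in cultured cardiac adipose-derived stem cells (cADSC) of the mouse. The 41 genes were taken by name from the 52636 genes of the deposited tables, and all 41 lay above the low-value filter that left 17529 genes to be tested. They comprised the G1 cyclin gene Ccnd1 with the CDK inhibitor gene Cdkn1a, 3 genes of the G1/S transition, 13 genes of S phase and replication, and 23 genes of G2 and mitosis. The genes were listed by name and known function, with earlier results of these data known.

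cADSC are stromal progenitor cells that adhere to plastic when the stromal vascular fraction of cardiac adipose tissue is cultured in medium with fetal bovine serum. RNA-sequencing covered 4 groups of 2 libraries each, and each library was prepared from a pool of RNA. The study describes 2 RNA pools and 2 cultures for each condition. It does not say whether the 2 pools of a group share cultures. KO + UTP denotes P2Y2 knockout cultures given 100 µM UTP daily for 7 days, KO denotes untreated P2Y2 knockout cultures, WT + UTP denotes wild type cultures with the same UTP treatment, and WT denotes untreated wild type cultures. P2Y2 is a G protein-coupled receptor for the nucleotides ATP and UTP. The labels give the strain as C57BL/6J for every sample, whereas the methods of the study describe the knockout mice as CD1/C57BL/6J, and adult mice of both sexes were used without selection. Nothing in the labels says which animals or culture days a pool came from, so p-values measure the spread between pools only, and genotype, strain background and culture cannot be told apart.

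The check of the targeted gene went first. P2ry2 (chr7:100996568-101012866 of GRCm38) had 274 and 301 scaled counts in KO + UTP, 280 and 311 scaled counts in KO, 328 and 328 scaled counts in WT + UTP, and 362 and 347 scaled counts in WT. Reads on P2ry2 thus remained in the libraries labelled P2Y2 KO, at levels below every WT-labelled library but far from 0. The sources used here do not say which part of the gene the knockout allele lacks. KO and WT are therefore used as labels throughout, and every direction given for KO-labelled pools rests on those labels.

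The deposited values summed to between 20008555 and 20015454 scaled counts per library, and before scaling the totals were an estimated 18.6 to 22.0 in units of 1000000 counts. CPM are scaled counts per 1000000 of these totals, where 0 counts leave room for a level of at most 0.15 CPM (3 counts, counting error only). The purity markers Thy1, Eng and Cd44 were present in every library, at 91.8 to 153, 147 to 194 and 188 to 308 CPM. The pools also differed in makeup. Xist, transcribed from the inactive X chromosome of female cells, had 0.15 and 221 CPM in KO + UTP, 0.1 and 215 CPM in KO, 241 and 242 CPM in WT + UTP, and 452 and 249 CPM in WT, and the first WT pool held 0 counts of Y-linked genes. The summed level of 19 macrophage markers was 3626 and 3806 CPM in KO + UTP, 5168 and 4536 CPM in KO, 1869 and 1779 CPM in WT + UTP, and 3917 and 2865 CPM in WT. In bulk RNA, fewer cells of a type and less RNA per cell cannot be told apart. The squared difference over the sum of scaled counts, averaged over genes, was 2.64 between the WT + UTP pools. Between the pools of the other groups it was 8.18 in KO + UTP, 7.73 in KO and 11.7 in WT. The WT + UTP pools were thus the most alike, and whether they share cultures is not stated.

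Cells commit to division in G1, when D-type cyclins and their kinases phosphorylate the retinoblastoma protein and release E2F transcription factors. E2F then switches on the genes for cyclin E, nucleotide synthesis and the licensing and replication of DNA, while the genes for the mitotic kinases, motors and checkpoint proteins peak later, in G2 and mitosis. Promoters of S phase genes often carry E2F sites, and promoters of mitotic genes often carry a cell cycle homology region (CHR) near the start site together with CCAAT boxes, through which the DREAM complex holds them down in resting cells and B-MYB and FOXM1 activate them in dividing cells.

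RefSeq promoters (GRCm38.p6, 250 bases before to 50 bases after the first listed start of each gene) were matched for 33 of the 41 genes and searched on both strands. The CHR was searched as TTTGAA or as TTCGAA, of which the second reads the same on both strands. The E2F site was searched as TTCCCGC or as TTGGCGC or as TTCGCGC or as TTGCCGC, whose matches on both strands can overlap, and the CCAAT box was searched by those letters. The stretches printed run from 130 bases before to 20 bases after the start, with every match in capitals. They were chosen after the values were known. Kif23, Cdk1 and Top2a show a CHR together with a CCAAT box, the arrangement described for mitotic genes. Mki67 is a mitosis gene whose printed stretch has CHR matches without a CCAAT box. Rrm1 and Mcm6 show E2F matches of replication genes.
Kif23, chr9:61946780-61946929, minus strand: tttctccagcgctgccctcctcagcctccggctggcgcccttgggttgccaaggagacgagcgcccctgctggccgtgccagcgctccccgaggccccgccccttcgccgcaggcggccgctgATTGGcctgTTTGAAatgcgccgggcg
Cdk1, chr10:69352893-69353042, minus strand: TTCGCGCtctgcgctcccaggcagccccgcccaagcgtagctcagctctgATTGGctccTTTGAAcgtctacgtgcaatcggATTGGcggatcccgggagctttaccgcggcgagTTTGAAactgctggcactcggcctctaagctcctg
Top2a, chr11:99024170-99024319, minus strand: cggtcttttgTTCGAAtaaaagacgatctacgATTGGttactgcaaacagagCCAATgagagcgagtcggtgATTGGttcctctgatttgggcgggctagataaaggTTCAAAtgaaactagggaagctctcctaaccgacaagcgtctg
Mki67, chr7:135716360-135716509, minus strand: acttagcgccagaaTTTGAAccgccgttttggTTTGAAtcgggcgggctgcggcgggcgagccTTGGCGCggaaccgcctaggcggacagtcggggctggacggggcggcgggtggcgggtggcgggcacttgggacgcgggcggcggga
Rrm1, chr7:102441565-102441714, plus strand: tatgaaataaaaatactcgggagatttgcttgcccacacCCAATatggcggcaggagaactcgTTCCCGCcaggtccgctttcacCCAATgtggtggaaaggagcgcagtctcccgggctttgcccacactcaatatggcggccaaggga
Mcm6, chr1:128359686-128359835, minus strand: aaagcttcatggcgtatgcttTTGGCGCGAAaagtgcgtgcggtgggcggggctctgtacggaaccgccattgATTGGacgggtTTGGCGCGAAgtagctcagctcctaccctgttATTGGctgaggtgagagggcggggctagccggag

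The Kif23 stretch held a CCAAT box, read on the reverse strand, a few bases before its CHR, and the Cdk1 stretch held 2 CHR matches, 2 CCAAT boxes and 1 E2F match. Top2a held 2 CHR matches and 3 CCAAT boxes, and Mki67 held 2 CHR matches and 1 E2F match but no CCAAT box in this window. Rrm1 held 1 E2F match between 2 CCAAT boxes, and Mcm6 held E2F matches at 2 places and 2 CCAAT boxes. Over the whole 300-base promoters, 14 of 18 matched G2 and mitosis genes (77.8%) held a CHR, against 2 of 12 S phase genes (16.7%) and 19.4% of all 27025 genes in the promoter table. Conversely, 8 of 12 S phase genes (66.7%) held an E2F match, against 3 of 18 mitosis genes (16.7%) and 9.7% of all genes. Of the 2 matched G1/S genes, Ccne1 and E2f1, 0 held an E2F match by these letters. A CCAAT box, with or without a CHR, occurred in 16 of 18 mitosis genes, 8 of 12 S phase genes and 37.9% of all genes. A CHR and a CCAAT box occurred together in 14 of 18 mitosis genes (77.8%), 2 of 12 S phase genes (16.7%) and 7.7% of all genes. These matches are letters in a window and do not show binding.

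The G2 and mitosis genes were lower in KO-labelled than in WT-labelled pools, with and without UTP. Their summed level was 1451 and 1256 CPM in KO + UTP, 1580 and 1442 CPM in KO, 2174 and 2258 CPM in WT + UTP, and 2015 and 2214 CPM in WT. All 4 KO-labelled pools thus lay below all 4 WT-labelled pools, while the UTP-treated and untreated pools of 1 genotype lay close together. In the comparison of KO + UTP with WT + UTP, all 23 genes fell, with a median log2 fold change of -0.75 and a range of -0.90 to -0.38. In the comparison of KO with WT, 18 of 23 fell, with a median of -0.53 and a range of -0.72 to -0.22, and the other 5 (Aurkb, Bub1b, Plk1, Cenpf and Mki67) also had fold changes below 0 but did not pass. Among all 17529 genes tested, 7.9% fell with UTP and 10.2% fell without UTP, by the same edgeR quasi-likelihood test with a Benjamini-Hochberg adjusted p under 0.05, and the medians over all genes were 0.0033 and 0.016.

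**Figure D1:**
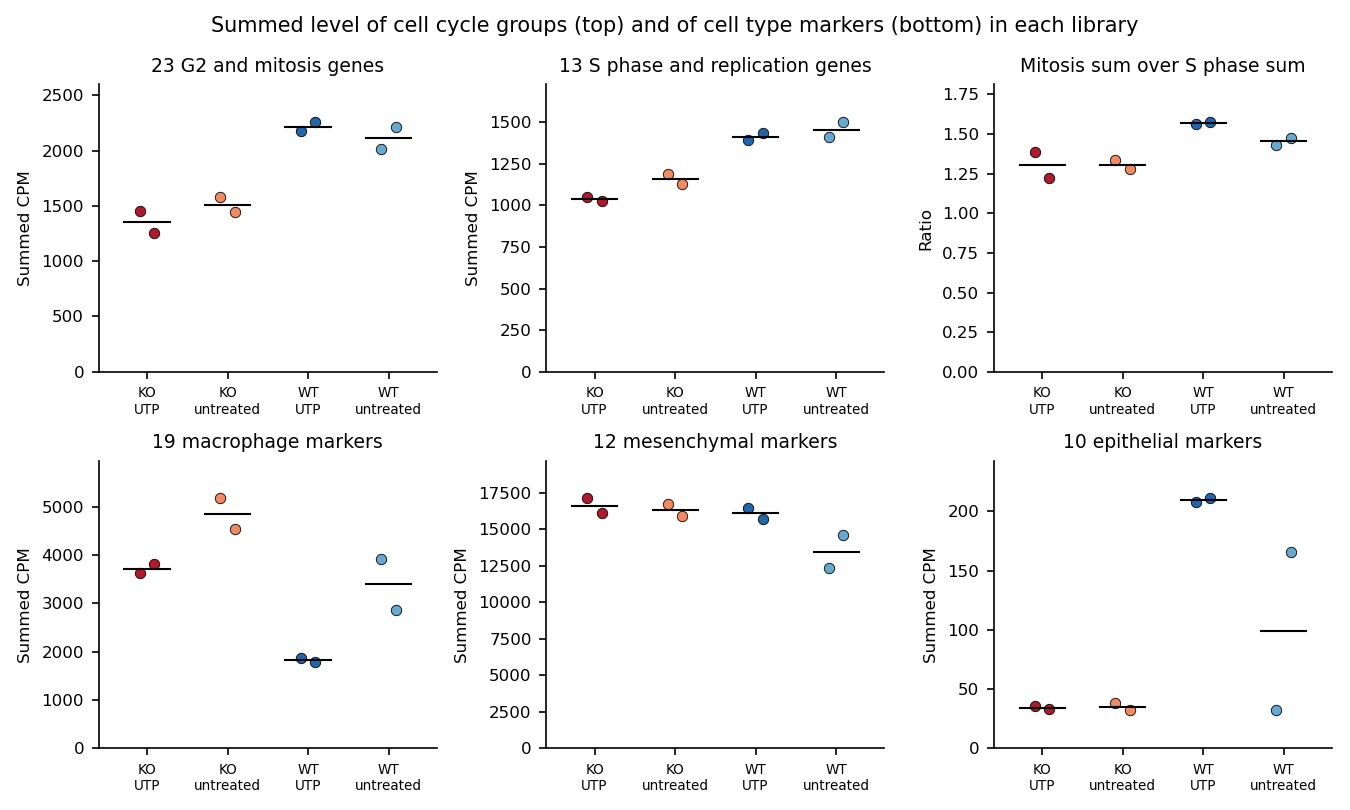
Summed CPM of the 23 G2 and mitosis genes and the 13 S phase and replication genes, the ratio of both sums, and the summed CPM of macrophage, mesenchymal and epithelial markers, with 1 point for each of the 8 libraries and a line at the mean of the 2 pools of a group. The mitosis sums of 1256 to 1580 CPM in the KO-labelled pools all lie below the 2015 to 2258 CPM of the WT-labelled pools, whereas the macrophage sums separate the groups in another order.

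The S phase and replication genes followed to a lesser extent. Their summed level was 1048 and 1026 CPM in KO + UTP, 1185 and 1129 CPM in KO, 1391 and 1433 CPM in WT + UTP, and 1409 and 1500 CPM in WT, and Rrm1 alone made up 31.1% to 37.7% of it. Without Rrm1 the sums were 674 and 659 CPM in KO + UTP, 817 and 759 CPM in KO, 872 and 893 CPM in WT + UTP, and 883 and 958 CPM in WT, so that the genotypes still did not overlap. With UTP, 11 of 13 genes fell (median log2 fold change -0.45), and without UTP 5 fell and Cdt1 rose (median -0.21). The ratio of the mitosis sum to the S phase sum was 1.38 and 1.22 in KO + UTP, 1.33 and 1.28 in KO, 1.56 and 1.58 in WT + UTP, and 1.43 and 1.48 in WT. The mitosis genes were therefore further below WT than the S phase genes, as sums and as medians. No test was made of this difference.

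Over the whole list, 37 of 41 genes passed between KO + UTP and WT + UTP, of which 36 fell and Ccnd1 rose, where 17.4% of all genes passed and 9.52% rose. Between KO and WT, 26 of 41 passed, of which 25 fell and Cdt1 rose, where 20.7% of all genes passed and 10.5% rose. DESeq2 called 35 and 21 of the 41, against 11.8% and 12.4% of all genes. In the test for any difference among the 4 groups, 38 of 41 passed (not E2f1, Cdkn1a and Mcm2), as did 26.1% of all genes. The 25 genes that fell without UTP also fell with UTP, whereas 5.37% of all genes tested fell in both comparisons. The comparisons use different libraries, but the same-numbered KO + UTP and KO pools had similar Xist levels and their deviations from the group means correlated at 0.593 across 11171 genes, so the comparisons are not independent. Both KO + UTP pools lay below both WT + UTP pools in 37 of 41 genes, as in 33.5% of all genes, and both KO pools lay below both WT pools in 34 of 41, as in 30.1% of all genes. In 32 of 41 genes, all 4 KO-labelled pools lay below all 4 WT-labelled pools, as they did in 17.9% of all genes tested. This count held 22 of 23 mitosis genes, 7 of 13 S phase genes and all 3 G1/S genes. The counts depended on single pools, given the 2 pools per group. Between KO + UTP and WT + UTP 21 genes passed without the second WT + UTP pool, and between KO and WT 11 passed without the first KO pool, 14 without the second KO pool, and 17 when the fit held only those 2 groups. Of the calls, 21 of 37 with UTP and 11 of 26 without UTP held whichever library was left out.

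**Figure D2:**
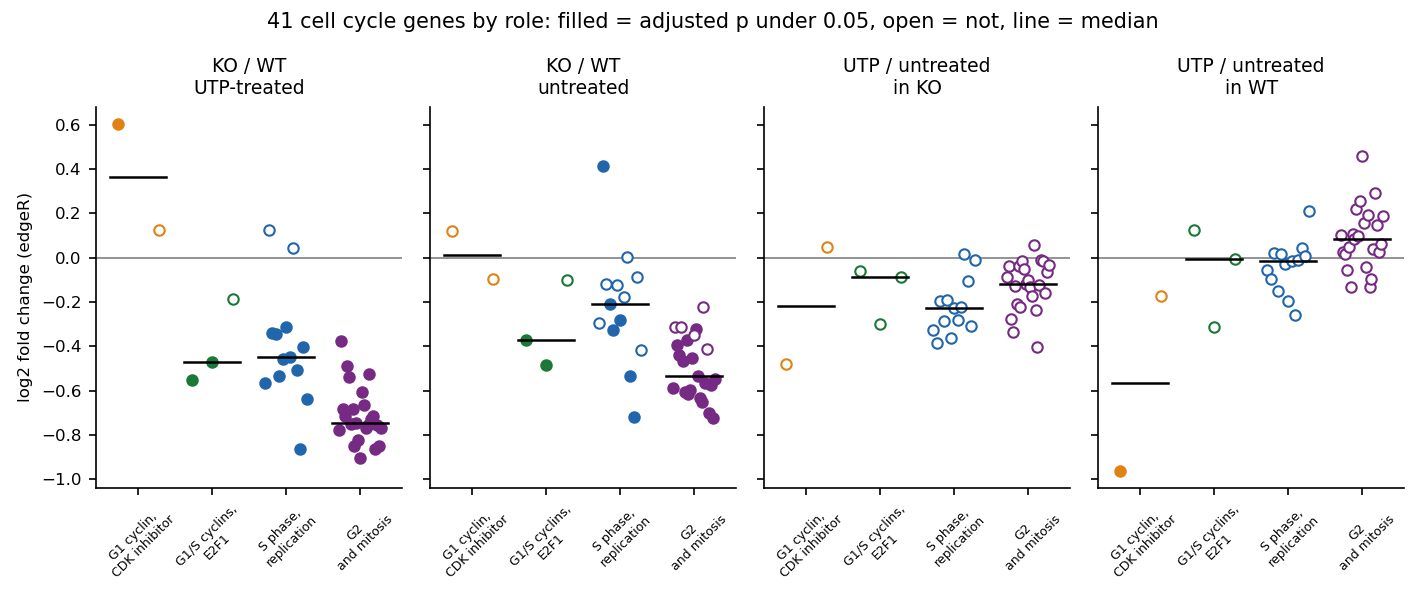
Fitted log2 fold change (y axis, edgeR) of the 41 genes by role (x axis) in 4 comparisons, with filled points for an adjusted p under 0.05, open points for the rest, and a line at the median of each role. All 23 mitosis genes are filled and below 0 for KO over WT with UTP, 18 are filled without UTP, and in the UTP comparisons only Ccnd1 in WT is filled.

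Among the mitotic kinases and cyclins, Cdk1 encodes the kinase that drives entry into mitosis. Cdk1 had 75.5 and 64.2 CPM in KO + UTP, 75.6 and 69.8 CPM in KO, 114 and 121 CPM in WT + UTP, and 101 and 119 CPM in WT. No KO-labelled pool reached a WT-labelled one, and the log2 fold change of KO over WT was -0.75 ± 0.09 with UTP (edgeR adjusted p = 0.00306) and -0.60 ± 0.09 without UTP (edgeR adjusted p = 0.00638). Ccnb1, which encodes the mitotic cyclin B1, the partner of Cdk1, had 51.2 and 40.9 CPM in KO + UTP, 49.7 and 45.2 CPM in KO, 75.5 and 79.6 CPM in WT + UTP, and 66.6 and 77.8 CPM in WT. Its genotypes did not overlap either, with log2 fold changes of -0.75 ± 0.11 with UTP (edgeR adjusted p = 0.00397) and -0.61 ± 0.11 without UTP (edgeR adjusted p = 0.0089). Ccna2, the gene of cyclin A2, which acts in S phase and G2, had 59.1 and 57.01 CPM in KO + UTP, 70.1 and 64.7 CPM in KO, 79.6 and 89.4 CPM in WT + UTP, and 90.2 and 95.4 CPM in WT. All KO-labelled pools were below all WT-labelled pools, with log2 fold changes of -0.54 ± 0.07 with UTP (edgeR adjusted p = 0.00336) and -0.46 ± 0.07 without UTP (edgeR adjusted p = 0.00551). About 12.5% of the exonic bases of Ccna2 are shared with Exosc9 on the opposite strand, and the strand setting of the counting is not given in the sources used here. Plk1, a kinase of spindle assembly and mitotic exit, had 45.5 and 36.8 CPM in KO + UTP, 46.2 and 36.98 CPM in KO, 66.97 and 68.2 CPM in WT + UTP, and 43.98 and 66.5 CPM in WT. The first WT pool lay within the range of the KO-labelled pools, and the log2 fold changes were -0.71 ± 0.18 with UTP (edgeR adjusted p = 0.0306) and -0.41 ± 0.18 without UTP (edgeR adjusted p = 0.14). Plk1 thus fell with UTP, and this call was lost when any of the 4 UTP-treated pools was left out. Ccnb2, a second B-type cyclin gene, fell, with log2 fold changes of -0.68 ± 0.10 with UTP and -0.37 ± 0.10 without UTP, with edgeR adjusted p-values of 0.00483 and 0.0382. Its call with UTP was lost without the second WT + UTP pool, and its call without UTP was lost without either KO pool, either WT + UTP pool or the second WT pool, with only those 2 groups in the model, and in the model blocked on replicate number.

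The proliferation antigen Mki67, which coats mitotic chromosomes, behaved less uniformly. Mki67 had 221 and 206 CPM in KO + UTP, 295 and 272 CPM in KO, 303 and 314 CPM in WT + UTP, and 363 and 296 CPM in WT. The 2 KO + UTP pools were the lowest of all, while the first untreated KO pool reached nearly the level of the second WT pool. The log2 fold changes were -0.53 ± 0.10 with UTP (edgeR adjusted p = 0.00991) and -0.22 ± 0.10 without UTP (edgeR adjusted p = 0.141). Top2a, the topoisomerase that untangles replicated DNA before segregation, had 185 and 158 CPM in KO + UTP, 199.96 and 184 CPM in KO, 285 and 295 CPM in WT + UTP, and 268 and 303 CPM in WT. Here both KO groups were clearly below both WT groups, with -0.76 ± 0.09 with UTP (edgeR adjusted p = 0.00213) and -0.57 ± 0.08 without UTP (edgeR adjusted p = 0.00526). Foxm1, a transcription factor that activates late cell cycle genes, had 52.5 and 46.4 CPM in KO + UTP, 56.2 and 52.6 CPM in KO, 74.5 and 76.4 CPM in WT + UTP, and 62.1 and 73.6 CPM in WT. All KO-labelled pools were lower than the WT-labelled pools, with -0.61 ± 0.09 with UTP (edgeR adjusted p = 0.00389) and -0.32 ± 0.09 without UTP (edgeR adjusted p = 0.0342). Birc5, survivin of the chromosomal passenger complex, had 28.5 and 28.3 CPM in KO + UTP, 35.6 and 33.4 CPM in KO, 43.7 and 47.7 CPM in WT + UTP, and 42.7 and 47.8 CPM in WT. Its genotypes were apart in both treatments, with -0.68 ± 0.08 with UTP (edgeR adjusted p = 0.00222) and -0.39 ± 0.08 without UTP (edgeR adjusted p = 0.0123). Aurkb, the kinase of the same complex, passed with UTP (-0.38 ± 0.10, edgeR adjusted p = 0.0343) and not without UTP (-0.31 ± 0.10, edgeR adjusted p = 0.0568), and its call was lost in DESeq2, in the model blocked on replicate number, and when any of the 4 UTP-treated pools was left out. Without UTP, the Birc5 call was lost without either KO pool. The Foxm1 call without UTP was lost without either KO pool, either WT + UTP pool or the second WT pool. Foxm1 without UTP also did not pass in DESeq2 or with only the KO and WT groups in the model. The Mki67 call with UTP was lost without the second KO + UTP pool or either WT + UTP pool.

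**Figure D3:**
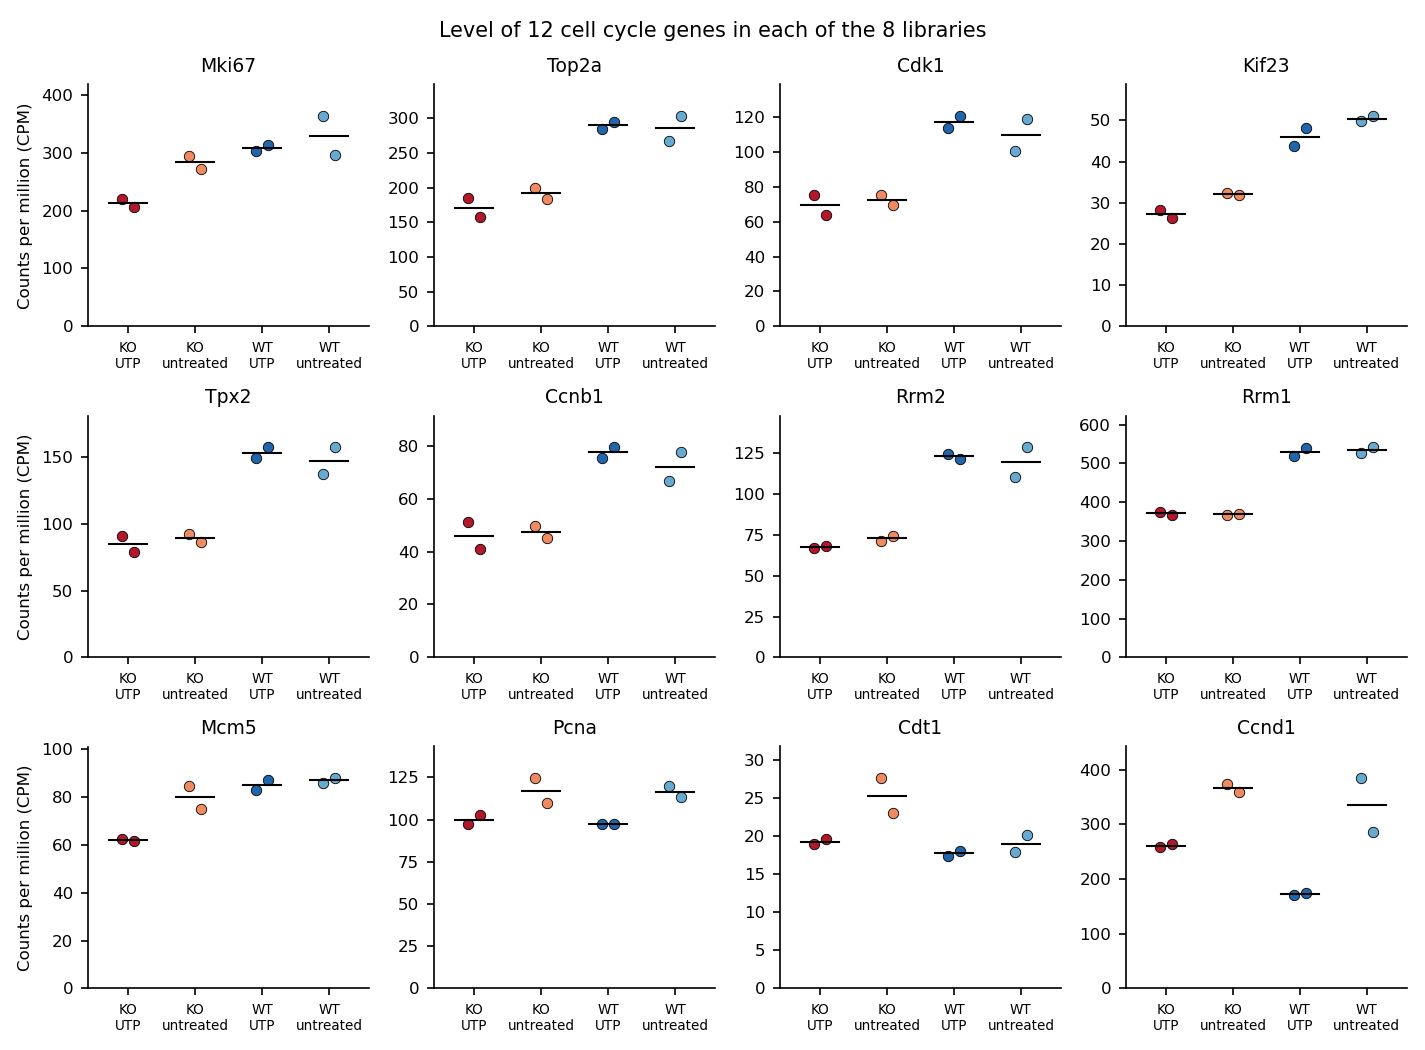
CPM (y axis, from 0) of 12 cell cycle genes in each of the 8 libraries, by group (x axis), with 1 point per library and a line at the mean of the 2 pools. Top2a, Cdk1, Kif23, Tpx2, Ccnb1, Rrm2 and Rrm1 have all KO-labelled points below all WT-labelled points, Pcna does not separate the genotypes, and Ccnd1 is lowest in WT + UTP, at 171 and 174 CPM.

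For the spindle genes Kif23, Tpx2, Kif11, Nusap1 and Kif20a, the calls of both genotype comparisons held whichever library was left out. Kif23, a kinesin of the central spindle and cytokinesis, had 28.2 and 26.2 CPM in KO + UTP, 32.4 and 31.98 CPM in KO, 43.8 and 48.2 CPM in WT + UTP, and 49.9 and 51.1 CPM in WT. The pools of each group lay close together and the genotypes did not overlap, and the log2 fold changes were -0.75 ± 0.07 with UTP (edgeR adjusted p = 0.00135) and -0.65 ± 0.07 without UTP (edgeR adjusted p = 0.0019). Tpx2, which nucleates spindle microtubules and activates Aurora A, had 91.1 and 79.2 CPM in KO + UTP, 92.7 and 86.4 CPM in KO, 149.5 and 158 CPM in WT + UTP, and 137 and 158 CPM in WT. With -0.85 ± 0.08 with UTP (edgeR adjusted p = 0.00156) and -0.72 ± 0.08 without UTP (edgeR adjusted p = 0.00251), it was the gene with the lowest fold change of the list without UTP. Kif11, the kinesin that separates spindle poles, had 44.4 and 39.3 CPM in KO + UTP, 50.4 and 44.4 CPM in KO, 66.9 and 65.9 CPM in WT + UTP, and 63.1 and 73.96 CPM in WT. The genotypes did not overlap, with -0.66 ± 0.09 with UTP (edgeR adjusted p = 0.00366) and -0.53 ± 0.09 without UTP (edgeR adjusted p = 0.00791). Nusap1, which bundles spindle microtubules, had 27.3 and 24.3 CPM in KO + UTP, 30.4 and 26.1 CPM in KO, 42.03 and 43.7 CPM in WT + UTP, and 38.6 and 44.9 CPM in WT. It also separated the genotypes, with -0.73 ± 0.10 with UTP (edgeR adjusted p = 0.00366) and -0.56 ± 0.10 without UTP (edgeR adjusted p = 0.00882). Kif20a, a kinesin of cytokinesis, had 106 and 87.7 CPM in KO + UTP, 98.1 and 88.9 CPM in KO, 163 and 168 CPM in WT + UTP, and 129.8 and 159.7 CPM in WT. All its KO-labelled values lay below its WT-labelled values, with -0.77 ± 0.11 with UTP (edgeR adjusted p = 0.00389) and -0.63 ± 0.11 without UTP (edgeR adjusted p = 0.00818), although 29.3% of its exonic bases are shared with Cdc23 on the opposite strand. Prc1, the microtubule crosslinker of the midzone, fell, with log2 fold changes of -0.86 ± 0.12 with UTP and -0.70 ± 0.12 without UTP (edgeR adjusted p = 0.00393 and 0.00879). Aurka, the spindle pole kinase that Tpx2 activates, fell, with log2 fold changes of -0.78 ± 0.12 and -0.59 ± 0.12 (edgeR adjusted p = 0.00471 and 0.0132). Without UTP, the call of Aurka was lost without either KO pool and that of Prc1 without the first KO pool.

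Kinetochore and checkpoint genes were lower as well. Cenpe, a kinetochore kinesin, had 52.1 and 45.6 CPM in KO + UTP, 54.7 and 51.8 CPM in KO, 83.7 and 89.4 CPM in WT + UTP, and 76.8 and 68.5 CPM in WT. The WT + UTP pools were the highest and the genotypes did not overlap, with -0.82 ± 0.08 with UTP (edgeR adjusted p = 0.00161) and -0.45 ± 0.08 without UTP (edgeR adjusted p = 0.0104). Cenpf, a kinetochore and nuclear matrix protein gene, had 41.7 and 34.3 CPM in KO + UTP, 45.3 and 36.5 CPM in KO, 70.1 and 72.4 CPM in WT + UTP, and 55.7 and 48.03 CPM in WT. The same order held, and Cenpf had the lowest fold change of the list with UTP, at -0.90 ± 0.12 with UTP (edgeR adjusted p = 0.00362) and -0.35 ± 0.12 without UTP (edgeR adjusted p = 0.0798). Bub1, a kinase of the spindle assembly checkpoint, had 22.9 and 21.4 CPM in KO + UTP, 29.4 and 26.7 CPM in KO, 36.9 and 36.03 CPM in WT + UTP, and 35.2 and 40.7 CPM in WT. Its KO + UTP pools were the lowest of all, with -0.72 ± 0.09 with UTP (edgeR adjusted p = 0.00251) and -0.44 ± 0.08 without UTP (edgeR adjusted p = 0.0116). Bub1b, which encodes the checkpoint protein BubR1, passed with UTP (-0.49 ± 0.12, edgeR adjusted p = 0.0243) but not without UTP (-0.31 ± 0.12, edgeR adjusted p = 0.0889). Cdc20, the activator of the anaphase-promoting complex, fell, with log2 fold changes of -0.85 ± 0.13 with UTP and -0.62 ± 0.13 without UTP (edgeR adjusted p = 0.00548 and 0.0175). Ube2c, the ubiquitin-conjugating enzyme of that complex, fell, with log2 fold changes of -0.77 ± 0.14 and -0.55 ± 0.14 (edgeR adjusted p = 0.00988 and 0.0317), with 22.8% of its exonic bases shared with Tnnc2 on the opposite strand. With UTP, the calls of Bub1b and Ube2c were lost without the second KO + UTP pool or either WT + UTP pool, and that of Cdc20 without the second WT + UTP pool. Without UTP, the calls of Cenpe, Bub1, Cdc20 and Ube2c were lost without either KO pool. That of Ube2c was also lost without either WT + UTP pool or the second WT pool, and with only the KO and WT groups in the model.

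Among the S phase genes, both subunits of ribonucleotide reductase, which makes deoxyribonucleotides, fell in both genotype comparisons. Rrm2, the regulated small subunit (chr12:24708241-24714146), had 66.8 and 68.1 CPM in KO + UTP, 71.2 and 74.4 CPM in KO, 125 and 122 CPM in WT + UTP, and 111 and 129 CPM in WT. The 4 KO-labelled values lay between 66.8 and 74.4 CPM, well below the 111 CPM of the lowest WT pool, with log2 fold changes of -0.86 ± 0.07 with UTP (edgeR adjusted p = 0.000859) and -0.72 ± 0.07 without UTP (edgeR adjusted p = 0.00159). Rrm1, the large subunit (chr7:102441695-102469771), had 375 and 367 CPM in KO + UTP, 368 and 369.7 CPM in KO, 518 and 539.97 CPM in WT + UTP, and 526 and 542 CPM in WT. Its KO-labelled pools agreed closely with each other whatever the treatment, as did its WT-labelled pools, with -0.51 ± 0.05 with UTP (edgeR adjusted p = 0.00176) and -0.54 ± 0.05 without UTP (edgeR adjusted p = 0.00158). Of the 41 genes, Rrm1 lies closest to the targeted gene P2ry2 (chr7:100996568-101012866), on the same chromosome. The part of this position in the Rrm1 difference was not tested. Tyms, thymidylate synthase, had 34.4 and 26.6 CPM in KO + UTP, 31.9 and 29.8 CPM in KO, 47.98 and 47.2 CPM in WT + UTP, and 35.03 and 47.3 CPM in WT. The first WT pool was hardly above the highest KO-labelled pool, and the fold changes were -0.64 ± 0.15 with UTP (edgeR adjusted p = 0.0207) and -0.42 ± 0.15 without UTP (edgeR adjusted p = 0.0765). Tk1, the thymidine kinase of the salvage route, had 43.1 and 39.3 CPM in KO + UTP, 53.7 and 48.9 CPM in KO, 53.3 and 55.9 CPM in WT + UTP, and 49.2 and 59.6 CPM in WT. Its untreated groups overlapped, with -0.40 ± 0.09 with UTP (edgeR adjusted p = 0.022) and -0.09 ± 0.09 without UTP (edgeR adjusted p = 0.532). The calls with UTP were lost when any of the 4 UTP-treated pools was left out for Tk1, and without the second KO + UTP pool or either WT + UTP pool for Tyms.

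The 6 subunits of the MCM helicase, which unwinds DNA at replication forks, all fell with UTP, and Mcm3, Mcm4 and Mcm6 also fell without UTP. Mcm4 had 65.6 and 64.2 CPM in KO + UTP, 75.3 and 73.6 CPM in KO, 91.8 and 96.5 CPM in WT + UTP, and 87.7 and 98.7 CPM in WT. It was the most decreased subunit, with -0.53 ± 0.06 with UTP (edgeR adjusted p = 0.0025) and -0.33 ± 0.06 without UTP (edgeR adjusted p = 0.0117). Mcm5 had 62.4 and 61.5 CPM in KO + UTP, 84.7 and 75.2 CPM in KO, 83.1 and 87.2 CPM in WT + UTP, and 86.1 and 87.95 CPM in WT. Only its KO + UTP pools stood apart from the rest, with -0.46 ± 0.06 with UTP (edgeR adjusted p = 0.0037) and -0.12 ± 0.06 without UTP (edgeR adjusted p = 0.185). Mcm2 had 54.2 and 53.4 CPM in KO + UTP, 65.4 and 58.6 CPM in KO, 68.4 and 67.9 CPM in WT + UTP, and 60.7 and 73.9 CPM in WT. The first untreated KO pool lay between the untreated WT pools, and the second lay below every WT-labelled pool. The log2 fold changes were -0.34 ± 0.09 with UTP (edgeR adjusted p = 0.034) and -0.12 ± 0.09 without UTP (edgeR adjusted p = 0.356). Mcm3, Mcm6 and Mcm7 had log2 fold changes of -0.34 ± 0.05, -0.31 ± 0.06 and -0.45 ± 0.06 with UTP (edgeR adjusted p = 0.0057, 0.0149 and 0.00405). Without UTP they had -0.21 ± 0.05, -0.28 ± 0.06 and -0.18 ± 0.06 (edgeR adjusted p = 0.0314, 0.0206 and 0.0796). The calls of Mcm4, Mcm5 and Mcm7 with UTP held whichever library was left out. That of Mcm2 was lost when any of the 4 UTP-treated pools was left out, that of Mcm3 without either WT + UTP pool, and that of Mcm6 without either KO + UTP pool or the second WT + UTP pool. Without UTP, the calls of Mcm3, Mcm4 and Mcm6 were lost without either KO pool and with only the KO and WT groups in the model. That of Mcm3 was also lost in DESeq2 and without either WT + UTP pool or the second WT pool. That of Mcm6 was also lost without the first WT pool. It was lost, too, with the share of male cells per pool, estimated from Xist, as a covariate (male share covariate).

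Among the licensing factors and the sliding clamp, Cdc6 fell with UTP, Cdt1 rose without UTP, and Pcna passed in neither comparison. Cdc6, which loads the helicase onto origins, had 11.1 and 11.04 CPM in KO + UTP, 15.4 and 12.5 CPM in KO, 15.5 and 17.3 CPM in WT + UTP, and 17.8 and 16.3 CPM in WT. The KO + UTP pools were lowest, with -0.56 ± 0.12 with UTP (edgeR adjusted p = 0.0176) and -0.29 ± 0.12 without UTP (edgeR adjusted p = 0.115). The call with UTP was lost when any of the 4 UTP-treated pools was left out. Cdt1, the partner of Cdc6 in loading, had 18.9 and 19.6 CPM in KO + UTP, 27.6 and 22.99 CPM in KO, 17.4 and 18.04 CPM in WT + UTP, and 17.9 and 20.1 CPM in WT. It was the gene of the list with the highest fold change without UTP, and its untreated KO pools were above all the others, with 0.12 ± 0.11 with UTP (edgeR adjusted p = 0.462) and 0.41 ± 0.10 without UTP (edgeR adjusted p = 0.0281). This call was lost in DESeq2, with the male share covariate, and with only the KO and WT groups in the model. It was also lost without the first KO pool, either WT + UTP pool or the first WT pool. Pcna, the sliding clamp of the replication polymerases, had 97.2 and 103 CPM in KO + UTP, 125 and 109.7 CPM in KO, 97.3 and 97.4 CPM in WT + UTP, and 119.7 and 113 CPM in WT. KO-labelled and WT-labelled pools overlapped in both treatments, with 0.04 ± 0.07 with UTP (edgeR adjusted p = 0.735) and 0.00 ± 0.07 without UTP (edgeR adjusted p = 0.971). The 3 retroposed copies Ccnb1-ps, Ccnb2-ps and Pcna-ps2 held 0 to 7, 14 to 26 and 5 to 13 scaled counts, so that few reads were assigned to them.

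At the G1/S transition, both cyclin E genes fell and E2f1 did not pass. Ccne1, a cyclin that activates CDK2, had 20.4 and 22.4 CPM in KO + UTP, 21.7 and 23.3 CPM in KO, 30.9 and 32.2 CPM in WT + UTP, and 28.2 and 29.8 CPM in WT. Every KO-labelled pool was lower than every WT-labelled pool, with -0.55 ± 0.09 with UTP (edgeR adjusted p = 0.00483) and -0.37 ± 0.09 without UTP (edgeR adjusted p = 0.0208). Ccne2, its paralog, had 10.7 and 11.7 CPM in KO + UTP, 15.1 and 12.7 CPM in KO, 15.2 and 15.9 CPM in WT + UTP, and 20.5 and 18.2 CPM in WT. The untreated pools were higher than the UTP-treated pools in each genotype, and the genotype differences were -0.47 ± 0.12 with UTP (edgeR adjusted p = 0.0309) and -0.48 ± 0.12 without UTP (edgeR adjusted p = 0.0238). E2f1, the transcription factor that activates S phase genes, had 34.03 and 33.7 CPM in KO + UTP, 36.8 and 35.6 CPM in KO, 40.4 and 36.9 CPM in WT + UTP, and 39.7 and 37.9 CPM in WT. Its groups lay next to each other without overlap between genotypes, with -0.19 ± 0.07 with UTP (edgeR adjusted p = 0.0982) and -0.10 ± 0.07 without UTP (edgeR adjusted p = 0.31). The Ccne2 calls were lost in DESeq2 and with the male share covariate in both comparisons. With UTP the Ccne2 call was also lost when any of the 4 UTP-treated pools was left out. Without UTP it was also lost without either KO pool, either WT + UTP pool or the first WT pool. The call without UTP was lost, too, with only the KO and WT groups in the model. The Ccne1 call with UTP was lost without the second WT + UTP pool. Its call without UTP was lost in DESeq2, with the male share covariate, and without the first KO pool. That call was also lost with only the KO and WT groups in the model.

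The G1 genes went another way. Ccnd1 (chr7:144929931-144939925), which encodes cyclin D1, had 258 and 264 CPM in KO + UTP, 373 and 359 CPM in KO, 171 and 174 CPM in WT + UTP, and 385 and 286 CPM in WT. The WT + UTP pools were the lowest, the KO + UTP pools came next, and the untreated pools of both genotypes were the highest. KO over WT was 0.60 ± 0.12 with UTP, a rise (edgeR adjusted p = 0.0136), and 0.12 ± 0.12 without UTP (edgeR adjusted p = 0.496). The rise with UTP was lost when any of the 4 UTP-treated pools was left out. Cdkn1a, the gene of the CDK inhibitor p21 and a target of p53, had 281 and 300.3 CPM in KO + UTP, 267 and 297 CPM in KO, 264 and 269.8 CPM in WT + UTP, and 319 and 284 CPM in WT. The groups lay close to each other, with 0.13 ± 0.09 with UTP (edgeR adjusted p = 0.352) and -0.10 ± 0.09 without UTP (edgeR adjusted p = 0.441). With the male share covariate, Ccnd1 and Cdkn1a both passed between KO + UTP and WT + UTP, with a median log2 fold change of 0.46. Between KO and WT 0 of these 2 genes passed with that covariate. The exons of Ccnd1 share 23.4% of their bases with LTO1 on the opposite strand.

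**Figure D4:**
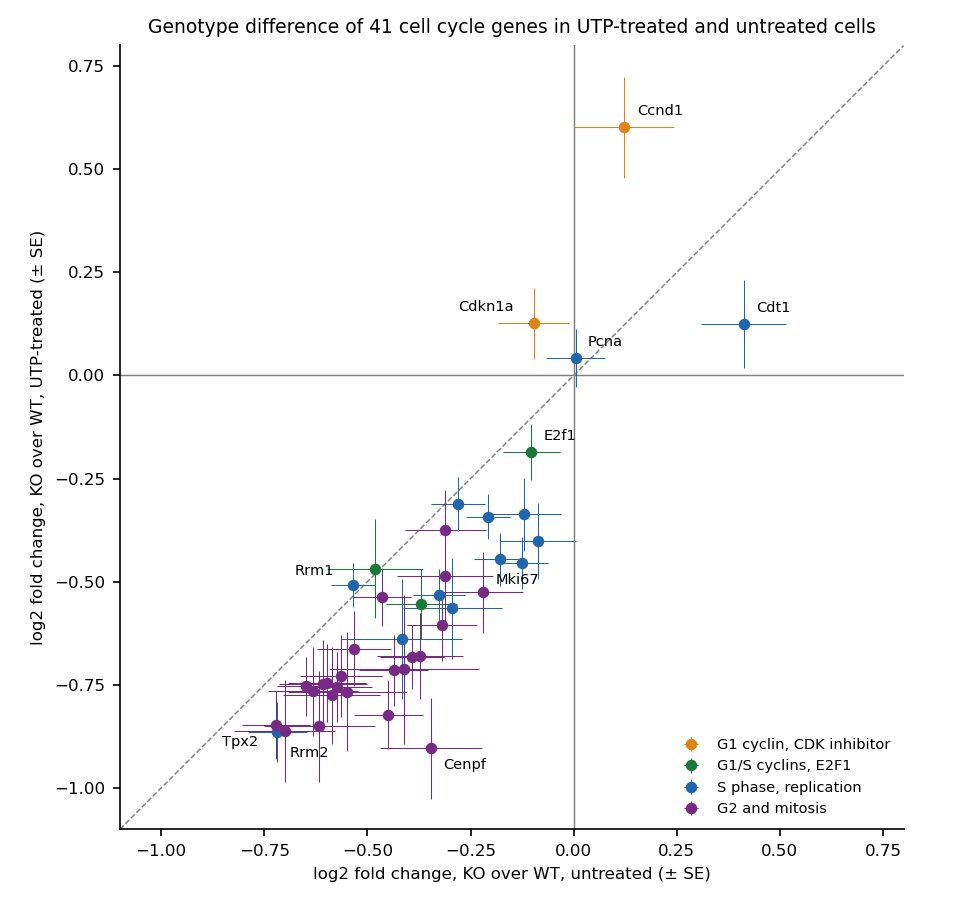
Log2 fold change of KO over WT in untreated pools (x axis) and in UTP-treated pools (y axis) for the 41 genes, with bars of 1 SE, colours by role and a dashed line of equal change. All 23 mitosis genes lie below 0 on both axes and below the dashed line, and Ccnd1, Cdt1, Cdkn1a and Pcna lie apart, above 0 on the y axis.

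UTP itself moved few of these genes past the test. In WT, 1 of 41 passed, where 1.22% of all genes passed and 1.08% fell: Ccnd1 fell, with a log2 fold change of -0.96 ± 0.12 (edgeR adjusted p = 0.0267). That call was lost without either WT + UTP pool or without the first KO pool, and with the 4 WT libraries alone. Cenpf had the highest value, at 0.46 ± 0.12 (edgeR adjusted p = 0.116), with both WT + UTP pools above both WT pools, and it passed in DESeq2, which called 2 of the 41 and 3.24% of all genes. The median over the 23 mitosis genes was 0.09 and over the 13 S phase genes -0.01. In KO, 0 of 41 passed in edgeR, where 0.0342% of all genes passed. An unadjusted edgeR p under 0.05 was reached by 16 of 41, against 1325 of all 17529 genes. DESeq2 called 2 of the 41 (Mki67 and Ccnd1, both lower) and 0.61% of all genes. The fold changes in KO were below 0 in 38 of 41 genes, with a median of -0.13, and in 8587 of all 17529 genes. For the S phase genes 12 of 13 were below 0 with a median of -0.22, and both KO + UTP pools lay below both KO pools in 11 of 13, as they did in 21.1% of all genes tested. Ccnd1 was the lowest, at -0.48 ± 0.12 (edgeR adjusted p = 0.419), and Kif20a the highest, at 0.06 ± 0.11 (edgeR adjusted p = 0.971). Mcm3, Mcm5, Mcm7, Mki67 and Ccnd1 passed as lower in KO + UTP when either WT pool was left out of the model, and 0 passed without any other library.

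The difference between the UTP effects in KO and in WT passed in 0 of 41 genes and in 0 of 17529 genes in edgeR, with 10 and 922 at an unadjusted p under 0.05, and DESeq2 called 0 of the 41. The fitted difference was below 0 in 36 of 41 genes and in all 23 mitosis genes, with a median of -0.18 over the list. Among all 17529 genes it was below 0 in 8743. It ran from -0.56 ± 0.17 for Cenpf to 0.48 ± 0.17 for Ccnd1, both with an edgeR adjusted p of 0.837. Ccnd1 passed only without the second WT pool (0.69, edgeR adjusted p = 0.0133). The larger genotype difference with UTP than without UTP was therefore not established by this test at 2 pools per group.

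The wider set of cell cycle genes followed the same division. Of 48 further mitosis genes, 44 fell with UTP and 36 fell without UTP, with medians of -0.65 and -0.48, where 7.9% and 10.2% of all genes fell. Smc2, a condensin subunit, had 59.9 and 58.2 CPM in KO + UTP, 70.6 and 61.7 CPM in KO, 96.5 and 98.3 CPM in WT + UTP, and 89.7 and 97.9 CPM in WT, and KO over WT was -0.72 ± 0.07 with UTP (edgeR adjusted p = 0.00155) and -0.51 ± 0.07 without UTP (edgeR adjusted p = 0.00411). Tacc3, a spindle protein, was -0.77 ± 0.08 (edgeR adjusted p = 0.0017) with UTP, Sgo2a, a protector of centromeric cohesion, was -0.89 ± 0.10 (edgeR adjusted p = 0.00213) with UTP, and Ckap2l, a spindle protein, was -0.78 ± 0.10 (edgeR adjusted p = 0.0038) without UTP. Of 40 further replication genes, 24 fell with UTP and 13 without UTP, against the same 7.9% and 10.2% of all genes, with medians of -0.36 and -0.22. Pole, the catalytic subunit of the leading-strand polymerase, had 28.5 and 26.8 CPM in KO + UTP, 32.6 and 35.2 CPM in KO, 45.2 and 49.4 CPM in WT + UTP, and 46.9 and 49.2 CPM in WT. Its KO-labelled pools were all lower than its WT-labelled pools, with -0.77 ± 0.08 with UTP (edgeR adjusted p = 0.0016) and -0.51 ± 0.08 without UTP (edgeR adjusted p = 0.00537). Clspn, the checkpoint adaptor claspin, had -0.64 ± 0.07 with UTP (edgeR adjusted p = 0.00183) and -0.41 ± 0.07 without UTP (edgeR adjusted p = 0.00725). Chaf1a, a histone chaperone of the replication fork, was -0.47 ± 0.06 (edgeR adjusted p = 0.00352) with UTP, and Dbf4, which activates the CDC7 kinase, was -0.58 ± 0.11 (edgeR adjusted p = 0.0115) without UTP. Without UTP, the call of Clspn was lost without the first KO pool and that of Dbf4 without either KO pool.

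Regulators moved in smaller numbers and in both directions. Of 24 genes of the RB-E2F and DREAM machinery, 6 fell and Cdk6 rose with UTP, and 8 fell without UTP, with medians of -0.13 and -0.12. Among all genes, 7.9% fell and 9.52% rose with UTP, and 10.2% fell without UTP. Cdk6, a G1 kinase partner of cyclin D, had 122 and 99.6 CPM in KO + UTP, 113 and 106 CPM in KO, 77.7 and 77.2 CPM in WT + UTP, and 97.6 and 88.6 CPM in WT. It was lowest in the WT + UTP pools, with KO over WT of 0.52 ± 0.09 (edgeR adjusted p = 0.008). E2f7, a repressor of E2F targets, was -0.70 ± 0.09 with UTP (edgeR adjusted p = 0.00349) and -0.44 ± 0.09 without UTP (edgeR adjusted p = 0.0142). Tfdp1, the dimer partner of E2F, was -0.32 ± 0.05 with UTP (edgeR adjusted p = 0.00479) and -0.31 ± 0.05 without UTP (edgeR adjusted p = 0.00651). Lin9, a core subunit of the MuvB complex, was -0.64 ± 0.12 (edgeR adjusted p = 0.0117) with UTP, and Ccnd2, cyclin D2, was -0.53 ± 0.10 (edgeR adjusted p = 0.011) without UTP. With UTP, the call of Cdk6 was lost without either WT + UTP pool, and that of Tfdp1 without the second WT + UTP pool. That of Lin9 was lost without the second KO + UTP pool or either WT + UTP pool. Of 7 CDK inhibitor genes, Cdkn2a, which encodes p16 and p19ARF, rose in both comparisons. Cdkn2a had 20.4 and 20.1 CPM in KO + UTP, 21.2 and 17.5 CPM in KO, 12.1 and 11.6 CPM in WT + UTP, and 11.04 and 12.9 CPM in WT. Its KO-labelled pools were all above its WT-labelled pools, with 0.77 ± 0.11 with UTP (edgeR adjusted p = 0.0043) and 0.69 ± 0.11 without UTP (edgeR adjusted p = 0.00738). Cdkn1c, the gene of p57, rose without UTP, at 1.04 ± 0.21 (edgeR adjusted p = 0.014). Its untreated levels were low, with 8.14 and 5.50 CPM in KO and 3.25 and 3.35 CPM in WT. Among all genes, 9.52% rose with UTP and 10.5% rose without UTP. Cdkn3, a phosphatase gene that is itself expressed with the mitotic genes, fell, with -0.81 ± 0.11 with UTP (edgeR adjusted p = 0.00383) and -0.74 ± 0.11 without UTP (edgeR adjusted p = 0.00558). The Cdkn2a call with UTP was lost without the second WT + UTP pool. Without UTP, the calls of E2f7, Tfdp1, Ccnd2, Cdkn2a and Cdkn1c were lost without the first KO pool. Those of E2f7 and Cdkn1c were also lost with the male share covariate. That of E2f7 was lost, too, in DESeq2 and with only the KO and WT groups in the model.

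Of 20 p53 target genes, 3 fell and Sesn1 rose with UTP, and 7 fell without UTP, with medians of -0.07 and -0.18. With UTP, 17.4% of all genes passed, so that the 4 calls among 20 genes were near the share over all genes. Without UTP, 10.2% of all genes fell. Btg2, an antiproliferative gene that p53 induces, had 79.5 and 83.4 CPM in KO + UTP, 75.7 and 83.96 CPM in KO, 177 and 175 CPM in WT + UTP, and 144 and 163 CPM in WT. It was the most decreased of them, with -1.11 ± 0.08 with UTP (edgeR adjusted p = 0.000428) and -0.94 ± 0.08 without UTP (edgeR adjusted p = 0.000828). Plk2, a kinase induced by p53, was -0.49 ± 0.10 with UTP (edgeR adjusted p = 0.0153) and -0.69 ± 0.10 without UTP (edgeR adjusted p = 0.00537). Mdm2, the ubiquitin ligase that degrades p53, was -0.19 ± 0.05 with UTP (edgeR adjusted p = 0.0372) and -0.32 ± 0.05 without UTP (edgeR adjusted p = 0.00651). Sesn1, a stress-induced gene, was 0.39 ± 0.10 (edgeR adjusted p = 0.0277) with UTP. The calls of Sesn1 and Mdm2 with UTP were lost when any of the 4 UTP-treated pools was left out, and that of Plk2 without the first KO + UTP pool or either WT + UTP pool. The Mdm2 call with UTP was also lost in DESeq2, without a filter and in the model blocked on replicate number. Its call without UTP was lost without the first KO pool.

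Markers of other cells were set beside these differences. The 12 mesenchymal markers summed to 17120 and 16130 CPM in KO + UTP, 16730 and 15950 CPM in KO, 16480 and 15710 CPM in WT + UTP, and 12330 and 14640 CPM in WT, and 0 of the 12 were at 0. Per 1000 CPM of these markers, the mitosis genes had 84.7 and 77.8 CPM in KO + UTP, 94.5 and 90.5 CPM in KO, 132 and 144 CPM in WT + UTP, and 164 and 151 CPM in WT, so that the genotypes did not overlap on this scale either. The scale itself differed, as the marker sums were lowest in the WT pools, which raises the ratio there. In KO over WT, 4 of the 12 markers rose with UTP, and 5 rose and 1 fell without UTP. Among all genes, 9.52% rose with UTP, and 10.5% rose and 10.2% fell without UTP. The 19 macrophage markers had their lowest sums in WT + UTP and their highest in KO, with 0 of them at 0. In KO over WT, 17 of 19 rose with UTP and 5 of 19 rose without UTP, where 9.52% and 10.5% of all genes rose. For UTP against untreated in WT, 13 of 19 fell, where 1.08% of all genes fell. The 10 epithelial markers summed to 35.3 and 33.1 CPM in KO + UTP, 38.02 and 32.5 CPM in KO, 208 and 211 CPM in WT + UTP, and 32.7 and 166 CPM in WT. In KO over WT, all 10 fell with UTP and 5 fell without UTP, where 7.9% and 10.2% of all genes fell. Epcam, an epithelial surface protein, was 0.35 and 0.35 CPM in KO + UTP, 0.2 and 0.15 CPM in KO, 2.85 and 3.40 CPM in WT + UTP, and 0.5 and 3.10 CPM in WT. The 8 lymphocyte markers summed to 9.80 and 4.25 CPM in KO + UTP, 6.80 and 3.85 CPM in KO, 1.499 and 0.75 CPM in WT + UTP, and 1.55 and 1.25 CPM in WT, so that all 4 KO-labelled pools lay above all 4 WT-labelled pools. The T cell markers Cd3e and Cd3d stayed at or below 0.35 CPM in every library, and Ncr1 of natural killer cells was at 0 in all of them. The smooth muscle, mesothelial and cardiac muscle sums of KO-labelled and WT-labelled pools overlapped. The endothelial sums overlapped with UTP, but without UTP they were 109.9 and 115.5 CPM in KO and 79.2 and 108.1 CPM in WT. Of the 10 endothelial markers, 3 rose and 1 fell with UTP, and 4 rose and 1 fell without UTP. Among all genes, 9.52% rose and 7.9% fell with UTP, and 10.5% rose and 10.2% fell without UTP. The part of these cells in the genotype differences was not tested. With the share of male cells per pool, estimated from Xist, as a covariate added after the data were seen, 37 genes passed with UTP, of which 35 were lower in KO-labelled pools, where 18.5% of all genes passed and 8.48% were lower. Without UTP 26 passed, all lower, where 8.19% of all genes passed and 3.75% were lower.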

How the data were processed

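RNA of 8 pools of cultured mouse cADSC (4 groups of 2 pools, with 2 cultures described for each group) was sequenced with a stranded mRNA kit as paired reads. Per the submitters' processing notes, the authors used Trimmomatic, STAR and HTSeq on GRCm38.p4 (mm10). The versions and the strand setting are not given in the sources used here. The authors deposited estimated counts for 52636 genes in 1 table per genotype. The whole numbers in each library fit counts multiplied by 1 factor (0.908 to 1.08) and rounded up to nearly equal totals, and the sources used here do not state this step. The deposited averages and ratios were not used. All values were joined by gene identifier, 52403 identifiers were found in the reference annotation and 15 names shown as dates were restored from the identifiers. No row for unassigned reads was present.

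The values were taken as counts and tested across all genes with the quasi-likelihood F test of edgeR 4.0.16 (R 4.3.3, limma 3.58.1) after TMM normalization (factors 0.989 to 1.01), in 1 model of the 4 groups with 4 residual degrees of freedom. Genes above 0.5 CPM in at least 2 libraries were tested, and the Benjamini-Hochberg adjustment ran over all 17529 of them, with a threshold of 0.05. SE is the log2 fold change divided by the square root of F. The model was tested on simulated data before use. Depth was nearly equal between libraries, and intervals for 0 counts cover counting error only.

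The 41 genes, the wider lists and the marker lists were chosen with earlier results of these data known. Values in every library are given for 20 chosen genes, for up to 10 further genes with the lowest adjusted p, and for the highest and lowest gene of a comparison. From a wider list up to 3 genes per direction and comparison are named, by lowest p. Kif23, Cdk1, Top2a, Mki67, Rrm1 and Mcm6 were chosen for sequence display after their values had been seen. Summed levels and promoter matches have no test. The alternatives were library totals in place of TMM, no filter, a minimum of 2 CPM, DESeq2 1.42.0, limma with trend on log2(CPM + 0.5), the replicate number as a block, only the groups compared, scaling undone, and each library left out. A block with the WT numbers crossed and a covariate for the male share of each pool, read from Xist, were added after the data were seen. Tables and figures were made in Python 3.11.15 with pandas 2.3.3 and matplotlib 3.10.9.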

Additional observations from a re-analysis of the deposited data

Results flagged for a closer look

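Foxm1, the gene of a transcription factor of late cell cycle genes, had UTP-treated pools on opposite sides of the untreated pools in the 2 genotypes: both KO + UTP pools (52.5 and 46.4 CPM) lay below both KO pools (56.2 and 52.6 CPM), whereas both WT + UTP pools (74.5 and 76.4 CPM) lay above both WT pools (62.1 and 73.6 CPM). Neither UTP effect passed, with log2 fold changes of -0.13 in KO and 0.16 in WT (edgeR adjusted p = 0.836 and 0.376). The log2 difference between the effects, KO minus WT, was -0.29 and did not pass the test of the difference itself (edgeR adjusted p = 0.837). Within KO the second KO pool lay barely above the first KO + UTP pool.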

How the results depend on the processing

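Counts of the 41 genes past the test were recomputed under each alternative. Between KO + UTP and WT + UTP the count of 37 was 21 to 37 with a library left out. Between KO and WT the count of 26 was 11 to 28 with a library left out and 17 with only those 2 groups in the model. For UTP in WT the count of 1 was 0 to 4 with a library left out, 3 without a filter (Ccnd1, Pcna and Cenpf), 2 in DESeq2 (Ccnd1 and Cenpf) and 0 with only those 2 groups. For UTP in KO the count of 0 was 0 to 5 with a library left out, 3 without a filter (Mcm5, Mki67 and Ccnd1) and 2 in DESeq2 (Mki67 and Ccnd1). The difference between the UTP effects had 0 calls and 0 to 1 with a library left out. The causes were not tested, except that a smaller group or model leaves fewer degrees of freedom by construction. Of all genes tested for UTP in WT, 3.47% passed without a filter and 3.24% in DESeq2. For UTP in KO these shares were 1.02% and 0.61%. The highest UTP counts, in WT without the second WT pool and in KO without either WT pool, came from fits with 1 WT pool. The share of all genes called was also higher in those fits, so no conclusion is drawn from these counts. None of the calls among the 41 genes, and none of 31 calls of wider-list genes, changed sign under any alternative run. The medians over the 41 genes kept their sign too, except for UTP in WT, where the median of 0.02 ran from -0.05 to 0.11. Over all genes, the share called between KO + UTP and WT + UTP was 17.4%, and 3.66% without the second WT + UTP pool. Between KO and WT it was 20.7%, and 4.13% without the first KO pool.

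The labels give same-numbered pools no shared source, and the numbers were not taken as pairs. Their deviations correlated at 0.593 between KO + UTP and KO, 0.057 between WT + UTP and WT, -0.165 between KO + UTP and WT + UTP, and -0.122 between KO and WT. The first KO + UTP and KO pools both had an estimated male share of 100%, and the second had 51.2% and 52.4%. With the replicate number as a block, 36 genes passed between KO + UTP and WT + UTP, 26 between KO and WT, 1 for UTP in WT and 0 for UTP in KO, and Aurkb with UTP and Ccnb2 without UTP no longer passed. With the WT numbers crossed in the block, which was added after the data were seen, the counts were 37, 30, 1 and 0.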
